A study of Mus musculus with 32 samples.

Results

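The spinal cords of 4 G93A mice treated with OKN-007 were compared with those of 4 untreated G93A mice at 155 days of age, which are 8 of the 32 mice sequenced in the series. The mice were chosen by the labels of the count table, as the columns of G93A mice at 155 days, with earlier results of these data known. All 8 carried the human mutant SOD1 transgene of the line B6-Tg(SOD1-G93A)1Gur/J, bred on the C57BL/6J background, and the mice of the study were predominantly female. The treated mice received OKN-007 in the drinking water. The study's cohorts killed at 155 days received its higher dose, for which only females were used, and differed in starting age. Its methods do not name the cohort of the mice whose RNA was sequenced, so neither a dose nor a starting age is assigned here. For reference, 4 untreated and 4 OKN-007-treated wild-type (WT) littermates of the same age were used, together with the 4 untreated and 4 treated G93A mice of the earlier age, which the labels give as 90 days and the study as 95 days. Spinal cord tissue of each mouse was extracted and polyadenylated RNA was sequenced, so that each value is an average over all cells of the tissue. The level of the cord is not stated. Transcripts of motor neurons (Chat), astrocytes (Gfap) and oligodendrocytes (Mbp) were present in all 8 libraries.

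Amyotrophic lateral sclerosis (ALS) is a disease in which the motor neurons of the spinal cord and cortex die, and dominant mutations of SOD1, the cytosolic copper and zinc superoxide dismutase, are among its inherited causes. In mice that overexpress the G93A form, spinal motor neurons are lost from early adulthood while astrocytes and microglia around them become reactive, and the mice are paralysed and die. OKN-007 is a disulfonated nitrone derived from phenyl-tert-butyl nitrone, developed as an antioxidant and anti-inflammatory compound. The comparison addresses whether the spinal cord transcriptome of G93A mice at the late age differed with the compound. Levels are given in CPM, the reads counted on a gene scaled to a common total in every mouse, and mice carry their numbers in the labels, 9 to 12 for untreated and 13 to 16 for treated G93A mice. In bulk tissue, fewer cells of a type and less RNA per cell cannot be told apart.

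Between 24432099 and 30098431 reads were counted on genes in each of the 8 mice, with no difference in total between the groups that was larger than their spread (26315101 ± 2562258 untreated and 27504821 ± 2152960 treated, SD, n = 4 each; two-sided exact permutation p = 0.514, where the smallest possible is 0.0286). A level of 3 counts, taken as the floor, was at most 0.123 CPM. Several libraries stood apart in transcripts of other tissues, of predicted genes or of genes that mark the level of the cord. The 8 liver genes listed, led by albumin (Alb), summed to 196 CPM in untreated 12 and 138 CPM in treated 15, against 1.29 to 8.77 CPM in the other 6 mice. Untreated 12 also held the fat transcripts Fabp4 (14.6 CPM), Cfd (8.31 CPM) and Adipoq (2.94 CPM), and untreated 9 held 1364 CPM of the predicted gene Gm10800, against 0.0334 to 33.8 CPM in the others.

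The caudal Hox genes, which are expressed in the lumbosacral cord, also differed between mice of one group. Their mean log2 CPM was 0.34 and 0.36 in untreated 9 and 10 but 1.71 and 1.84 in untreated 11 and 12, 0.77 in treated 13 and 1.62 to 2.17 in treated 14 to 16, and 1.82 to 3.06 in the 8 WT mice. Hoxc10 was 3.30, 2.73, 39.3 and 40.0 CPM in untreated 9 to 12 and 13.2, 25.97, 32.3 and 10.9 CPM in treated 13 to 16. The part of these differences in the results was not tested beyond fits that leave these mice out or carry the Hox score as a covariate.

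**Figure D1:**
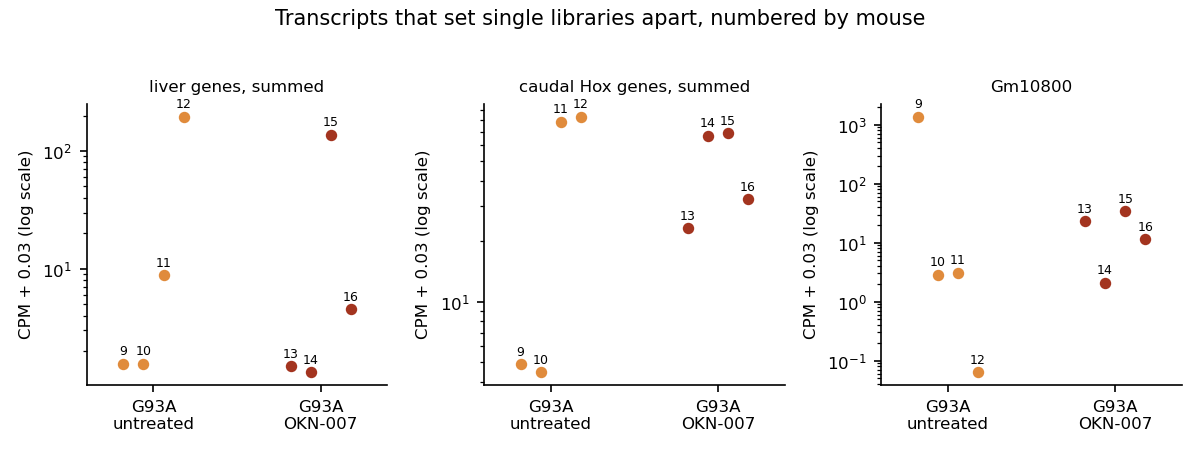
Transcripts that set single libraries apart in the 8 G93A mice at 155 days. Each point is one mouse, numbered as in the labels, and the log axis gives CPM plus 0.03 of the liver genes (summed), the caudal Hox genes (summed) and Gm10800. Liver transcripts stand out in untreated 12 and treated 15, caudal Hox transcripts are lowest in untreated 9 and 10, and Gm10800 reaches 1364 CPM in untreated 9.

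After adjustment for the number of genes tested, OKN-007 and untreated G93A mice of 155 days differed in no gene. The quasi-likelihood test of edgeR called 0 of 18675 genes at an adjusted p under 0.05 (0%), with a smallest adjusted p of 0.9996, and DESeq2 and limma-voom also called 0. At an unadjusted p under 0.05 there were 755 genes, fewer than the 934 that chance alone would give, of which 475 (2.54%) were higher and 280 (1.5%) lower in treated mice. DESeq2 gave 723 and limma-voom 772 such genes. The number rested on single mice in part, since it was 1163 without untreated 10, 1221 without untreated 11 and 469 without treated 14. In 389 genes (2.08%) all 4 treated mice lay above all 4 untreated mice, and in 202 genes (1.08%) all lay below.

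The precision behind this null result was moderate. The 95% interval of the log2 fold change had a median extent of 0.26 to either side. It lay within a 2-fold change in both directions in 16340 genes (87.5%) and within a 1.5-fold change in 13180 genes (70.6%). In the remaining genes the interval reached past these limits in at least one direction. Across all genes the median log2 fold change was -0.01, with 9000 genes above and 9675 below zero, and from the 10th to the 90th percentile it ran from -0.20 to 0.22. An absolute log2 fold change above 1 was seen in 108 genes.

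By contrast, untreated G93A mice differed from untreated WT mice in 7378 genes (edgeR, adjusted p under 0.05), of which 3981 rose (21.3%) and 3397 fell (18.2%). Among treated mice the same comparison of genotypes called 4346 genes that rose (23.3%) and 3401 that fell (18.2%). Caudal Hox genes also lay lower in G93A than in WT mice, with median log2 fold changes of -1.48 in untreated and -1.95 in treated mice. The part of cord level in the genotype comparisons was not tested. The 2 genotype comparisons each share a group of G93A mice with the comparison of treatments, so their values are set side by side only. To bound how much of the G93A change could be missing in treated mice, treated G93A mice were compared with the midpoint between untreated G93A and untreated WT mice. Of the 7378 genes, the mean of the treated mice lay on the G93A side of the midpoint in 7153 (97%), and this was past an adjusted p of 0.05 in 4018 (54.5%). On the WT side it was past the threshold in 2 genes, N4bp2 and Gm37773. The treated mean was displaced from the untreated G93A mean toward WT in 3110 genes and away from WT in 4268. Over all genes 4554 differed from the midpoint, and 2576 did so without treated 13.

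N4bp2 (ENSMUSG00000037795) was 10.9, 9.83, 11.2 and 9.94 CPM in untreated 9 to 12 and 13.3, 16.3, 15.8 and 13.3 CPM in treated 13 to 16, while untreated WT mice had 13.6 ± 1.5 CPM (SD, n = 4). All treated mice lay above all untreated G93A mice and overlapped the WT range. The difference between treated and untreated G93A mice was a log2 fold change of 0.49 (SE 0.12, 95% interval 0.24 to 0.73, edgeR unadjusted p = 0.000565, adjusted p = 0.9996). The predicted gene Gm37773 (ENSMUSG00000104033) was 0.819 ± 0.132 CPM in untreated and 1.65 ± 0.13 CPM in treated G93A mice, resting on 17 to 30 and 43 to 48 counts, and 1.503 ± 0.20 CPM in untreated WT mice. Neither gene passed the test of treatment itself.

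Of the gene groups listed for description, that of motor neurons lay lowest in treated mice relative to untreated mice. The groups were listed with earlier results of these data known, so the values are a description. The motor neuron group holds 14 genes of cholinergic transmission, motor neuron transcription factors and proteins of large motor axons. Of these, 13 lay below zero and 1 above, with a median log2 fold change of -0.30, against 9000 above and 9675 below zero and a median of -0.01 over all genes tested. None passed the adjusted threshold, and 6 had an unadjusted p under 0.05, all lower, beside the background of 1.5%. Leaving out each mouse in turn gave medians between -0.41 and -0.21. The summed level of the group was 408, 380, 366 and 393 CPM in untreated 9 to 12 and 302, 313, 319 and 393 CPM in treated 13 to 16, so 3 treated mice lay below every untreated mouse and treated 16 lay among them. In the 8 WT mice the sum was 512 to 596 CPM.

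Chat (ENSMUSG00000021919), which encodes choline acetyltransferase, the enzyme that makes acetylcholine, was 21.9, 25.2, 21.7 and 20.5 CPM in untreated 9 to 12. In treated 13 to 16 it was 19.3, 16.1, 14.7 and 19.1 CPM. The groups did not overlap, the nearest mice being treated 13 and untreated 12, and 1.08% of all genes tested were lower in this way. The log2 fold change was -0.37 (SE 0.10, 95% interval -0.58 to -0.16, edgeR unadjusted p = 0.00168, adjusted p = 0.9996). Untreated and treated WT mice had 29.7 ± 3.1 and 34.2 ± 2.0 CPM (SD, n = 4 each).

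Slc18a3 (ENSMUSG00000100241), the transporter that loads acetylcholine into synaptic vesicles, was 20.8, 16.8, 17.4 and 18.2 CPM in untreated mice and 9.26, 11.6, 10.8 and 16.9 CPM in treated mice, in the same order. Treated 13 to 15 lay below all untreated mice, and treated 16 lay between untreated 10 and 11. This gave a log2 fold change of -0.60 (SE 0.15, 95% interval -0.91 to -0.29, edgeR unadjusted p = 0.000679, adjusted p = 0.9996). Slc18a3 lies inside an intron of Chat on the same strand, so the reads of this pair cannot be assigned with certainty. Without treated 16 the log2 fold change was -0.80 with an adjusted p of 0.0846 by edgeR. With any other G93A mouse left out instead, it ran from -0.64 (without untreated 10) to -0.49 (without treated 13). The adjusted p by edgeR was then 0.754 or more. Without the filter on low counts the adjusted p by edgeR was 0.0175 at a log2 fold change of -0.60. Slc5a7, the high-affinity choline transporter of the same terminals, was 45.2, 32.8, 23.6 and 37.5 CPM untreated and 20.7, 21.7, 22.9 and 39.2 CPM treated, again with treated 16 high. Its log2 fold change was -0.42 (SE 0.21, 95% interval -0.86 to 0.02).

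Mmp9, a matrix metalloproteinase that marks fast motor neurons, was 2.79, 2.56, 3.09 and 3.10 CPM in untreated mice and 1.67, 1.84, 1.60 and 2.61 CPM in treated mice. Here too only treated 16 reached the untreated range. On the log2 scale the difference was -0.59 (SE 0.15, 95% interval -0.91 to -0.28, edgeR unadjusted p = 0.000932). Chodl, another marker of fast motor neurons, was 4.05 ± 0.59 CPM untreated and 3.55 ± 0.78 CPM treated, against 24.5 CPM in untreated WT mice, and its log2 fold change with treatment was -0.19 with an interval from -0.61 to 0.24. Prph, the intermediate filament peripherin, was 83.6, 88.0, 90.9 and 71.3 CPM untreated and 66.3, 63.5, 59.0 and 81.4 CPM treated, a log2 fold change of -0.30 (SE 0.10, edgeR unadjusted p = 0.00919). Calcb and Ret, a calcitonin gene-related peptide and the receptor of the GDNF family, were at -0.55 (SE 0.21) and -0.22 (SE 0.10). The transcription factor Mnx1 (HB9) was 2.65 ± 0.26 CPM untreated and 2.71 ± 0.71 CPM treated, a log2 fold change of 0.02 (SE 0.18). Gfra1 (-0.08), Esrrg (-0.05) and Calca (-0.02) were also near zero. Mmp9, Chodl, Calcb, Ret, Gfra1, Esrrg, Calca and Slc5a7 were taken up for description after their values were seen.

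Mice that stood apart were removed to see how far the motor neuron values rest on them. Without untreated 9 and 10, the mice with the lowest caudal Hox levels, the log2 fold change was -0.29 for Chat, -0.56 for Slc18a3 and -0.69 for Mmp9. With the Hox score as a covariate it was -0.30, -0.60 and -0.61 in that order. Without the mice with liver transcripts it was -0.35, -0.56 and -0.49. In each of these fits the adjusted p of all 3 genes stayed above 0.05. Slc5a7, Calcb and Prph came nearer to zero without untreated 9 and 10, at -0.24, -0.43 and -0.27 (edgeR unadjusted p = 0.364, 0.101 and 0.0650). With the Hox covariate they were at -0.28, -0.46 and -0.29. Ret did not come nearer to zero in these fits, at -0.25 and -0.24.

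Set beside the change with genotype, 11 of the 14 motor neuron genes fell in untreated G93A mice relative to WT mice (median log2 fold change -0.59, edgeR adjusted p under 0.05), and 13 of 14 fell in treated mice (median -1.03). In each comparison 18.2% of all genes tested fell. Gfra1, the GDNF co-receptor, rose in both. The difference between the effect of OKN-007 in G93A and in WT mice was tested as an interaction over all 18675 genes, with 0 called at an adjusted p under 0.05 (0%) and 437 at an unadjusted p under 0.05 (2.34%), while DESeq2 called 2, Ide and Fgfbp3, which are not in the motor neuron group. In WT mice the median log2 fold change of the motor neuron group with OKN-007 was 0.01. For Chat the interaction was -0.57 on the log2 scale (SE 0.14, edgeR unadjusted p = 0.000661, adjusted p above 0.05), and 6 of the 14 genes had an unadjusted p under 0.05. At the earlier age the median log2 fold change with OKN-007 in G93A mice was -0.21, and the difference between the ages called 0 of 19829 genes (0%) by edgeR, with 466 at an unadjusted p under 0.05, and 0 by DESeq2.

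**Figure D2:**
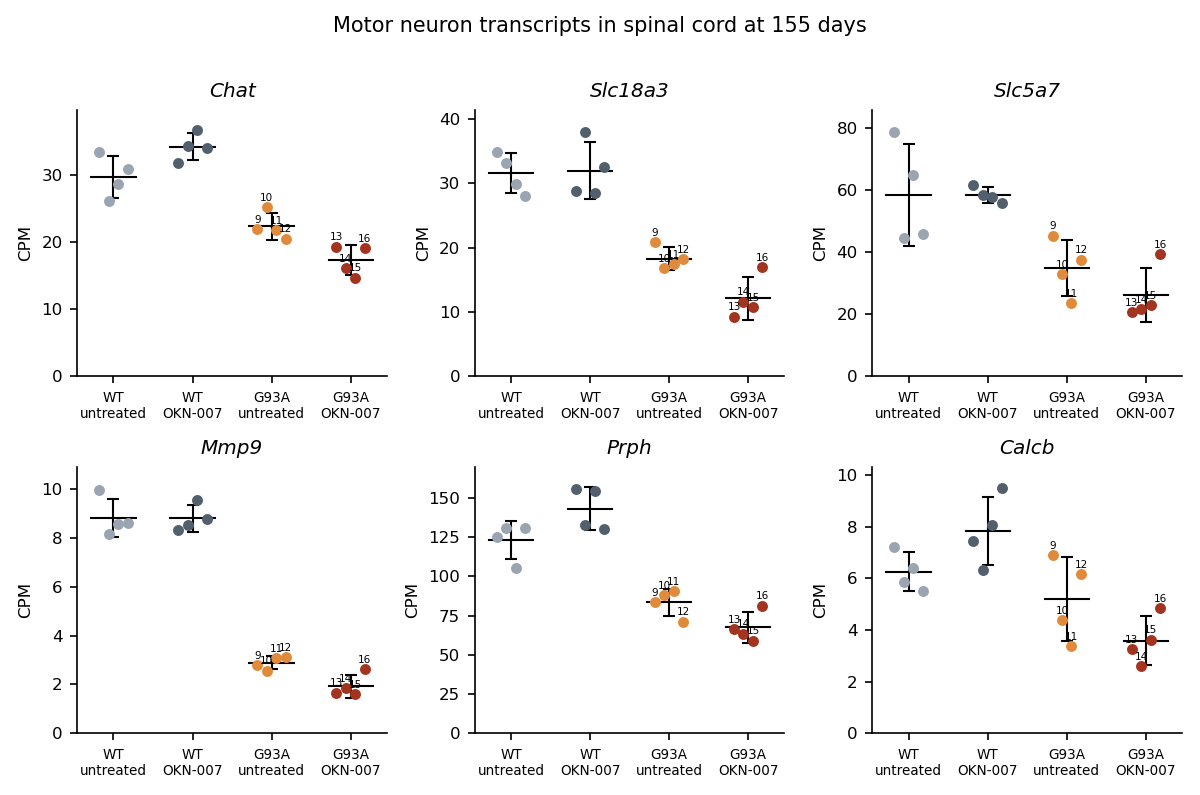
Motor neuron transcripts in the spinal cord at 155 days. Each point is one mouse in CPM (numbered for G93A mice), and bars give the mean ± SD of 4 mice in untreated and treated WT and G93A groups. Treated G93A mice 13 to 15 lie below the untreated G93A mice for Slc18a3 and Mmp9 and treated 16 lies among them, while all 4 are lower for Chat; none of these differences passed the adjusted threshold.

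Pan-neuronal transcripts were described by 16 genes of neurons and of inhibitory and excitatory transmission. Of these, 11 lay below zero (median log2 fold change -0.15), and leaving out each mouse in turn gave medians between -0.22 and -0.03. Beside the background of 1.5%, the unadjusted p was under 0.05 in 2 genes, both lower, Tubb3 (-0.21, SE 0.08) and Stmn2 (-0.18, SE 0.08), a tubulin and a tubulin-binding protein of axons, which were singled out after their values were seen. Rbfox3 (ENSMUSG00000025576), which encodes the neuronal nuclear antigen NeuN, was 153, 138, 150 and 155 CPM in untreated mice and 138, 148, 145 and 162 CPM in treated mice. The ranges overlapped throughout and the log2 fold change was -0.01 (SE 0.07, 95% interval -0.14 to 0.13). Nefm, the medium neurofilament, was 2436 ± 477 and 2085 ± 433 CPM, a log2 fold change of -0.22 with an interval from -0.52 to 0.07. Slc6a5, the glycine transporter of inhibitory neurons, was at -0.27 with a wider interval from -0.76 to 0.23. In all, 14 of the 16 fell with genotype in both untreated and treated mice, beside 18.2% of all genes in each.

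Transcripts induced in injured axons showed no such displacement, with 7 of 13 above and 6 below zero and a median of 0.01. Gap43, the growth cone protein, was 196 ± 13 CPM untreated and 197 ± 11 CPM treated, with an interval of the log2 fold change from -0.14 to 0.15, and Sox11 was at 0.24 (SE 0.14).

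Mouse Sod1 (ENSMUSG00000022982) was 267, 243, 279 and 240 CPM in untreated and 247, 246, 252 and 265 CPM in treated G93A mice. The treated mice lay within the untreated range, with a log2 fold change of -0.03 (SE 0.10, 95% interval -0.23 to 0.17). WT mice had 275 and 268 CPM without and with OKN-007. The count table carries mouse genes, so these values do not measure the human transgene, which is not analysed here. Among 22 genes linked to inherited ALS, 9 lay above and 13 below zero (median -0.02). Tardbp, which encodes the RNA-binding protein TDP-43, was 225 to 251 CPM in untreated and 261 to 275 CPM in treated mice, with no overlap. Its log2 fold change was 0.18 (SE 0.08, edgeR unadjusted p = 0.0370, adjusted p = 0.9996), against a background of 2.08% of genes with such separation.

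Astrocyte transcripts showed no difference between the groups that was larger than their spread. Gfap (ENSMUSG00000020932), the intermediate filament of reactive astrocytes, was 10030, 12880, 13080 and 10020 CPM in untreated 9 to 12. In treated 13 to 16 it was 12890, 12160, 12850 and 10670 CPM. Treated mice lay inside the untreated range, and untreated mice formed a low pair (9 and 12) and a high pair (10 and 11). The log2 fold change was 0.08 (SE 0.10, 95% interval -0.14 to 0.30), beside an increase of 2.401 with genotype in untreated mice and 2.65 in treated mice. All 17 reactive astrocyte genes rose with genotype in both, beside 21.3% of all genes in untreated and 23.3% in treated mice. With OKN-007, 10 of the 17 lay above and 7 below zero with a median of 0.07, which ran from -0.11 to 0.25 when single mice were left out.

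Within the astrocyte group, complement C3 was 631 ± 201 CPM untreated and 665 ± 168 CPM treated, a log2 fold change of 0.08 with an interval from -0.32 to 0.47. Lipocalin 2 (Lcn2), a secreted siderophore-binding protein, had the lowest log2 fold change at -1.24 (SE 0.71), which rests on untreated 11 with 33.3 CPM while the other untreated mice had 1.502 to 3.76 CPM and the treated mice 2.49 to 6.08 CPM. S1pr3, a receptor for sphingosine-1-phosphate, was at 0.39 (SE 0.18, edgeR unadjusted p = 0.0409) and was singled out for it. Of 10 genes of resting astrocytes 4 lay above and 6 below zero, and the water channel Aqp4 was highest at 0.19 (95% interval -0.03 to 0.42).

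The same held for microglial transcripts. Aif1 (ENSMUSG00000024397), which encodes the microglial protein IBA1, was 24.6, 42.6, 39.5 and 22.9 CPM in untreated mice and 39.7, 32.2, 29.6 and 29.9 CPM in treated mice. Treated mice lay within the untreated range, in which mice 9 and 12 were again low and 10 and 11 high. Its log2 fold change was 0.02 (SE 0.18), and its interval from -0.35 to 0.39 is wide beside that of Gfap. With genotype Aif1 rose by 2.70 on the log2 scale in untreated and 2.92 in treated mice.

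The 22 genes of disease-associated microglia, which take up lipid and debris around dying neurons, all rose with genotype in untreated and in treated mice (median log2 fold changes 4.06 and 4.13, beside 21.3% and 23.3% of all genes that rose). With OKN-007 17 lay above and 5 below zero with a median of 0.09, and none had an unadjusted p under 0.05. Their summed level was 17200, 25380, 29840 and 13810 CPM in untreated 9 to 12 and 26750, 24790, 22620 and 20460 CPM in treated 13 to 16. These sums are mostly Apoe, and the treated mice lay within the untreated range. Atp6v0d2, a subunit of the vacuolar proton pump, was highest at 0.46 (95% interval -0.19 to 1.11), and the chemokine Ccl6 lowest at -0.20 (-0.47 to 0.06). Leaving out single mice moved the median between -0.03 and 0.19. Of 12 genes of resting microglia, 4 lay above and 8 below zero, and Siglech, a sialic acid-binding lectin, was lowest at -0.24 (SE 0.11, edgeR unadjusted p = 0.0385).

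**Figure D3:**
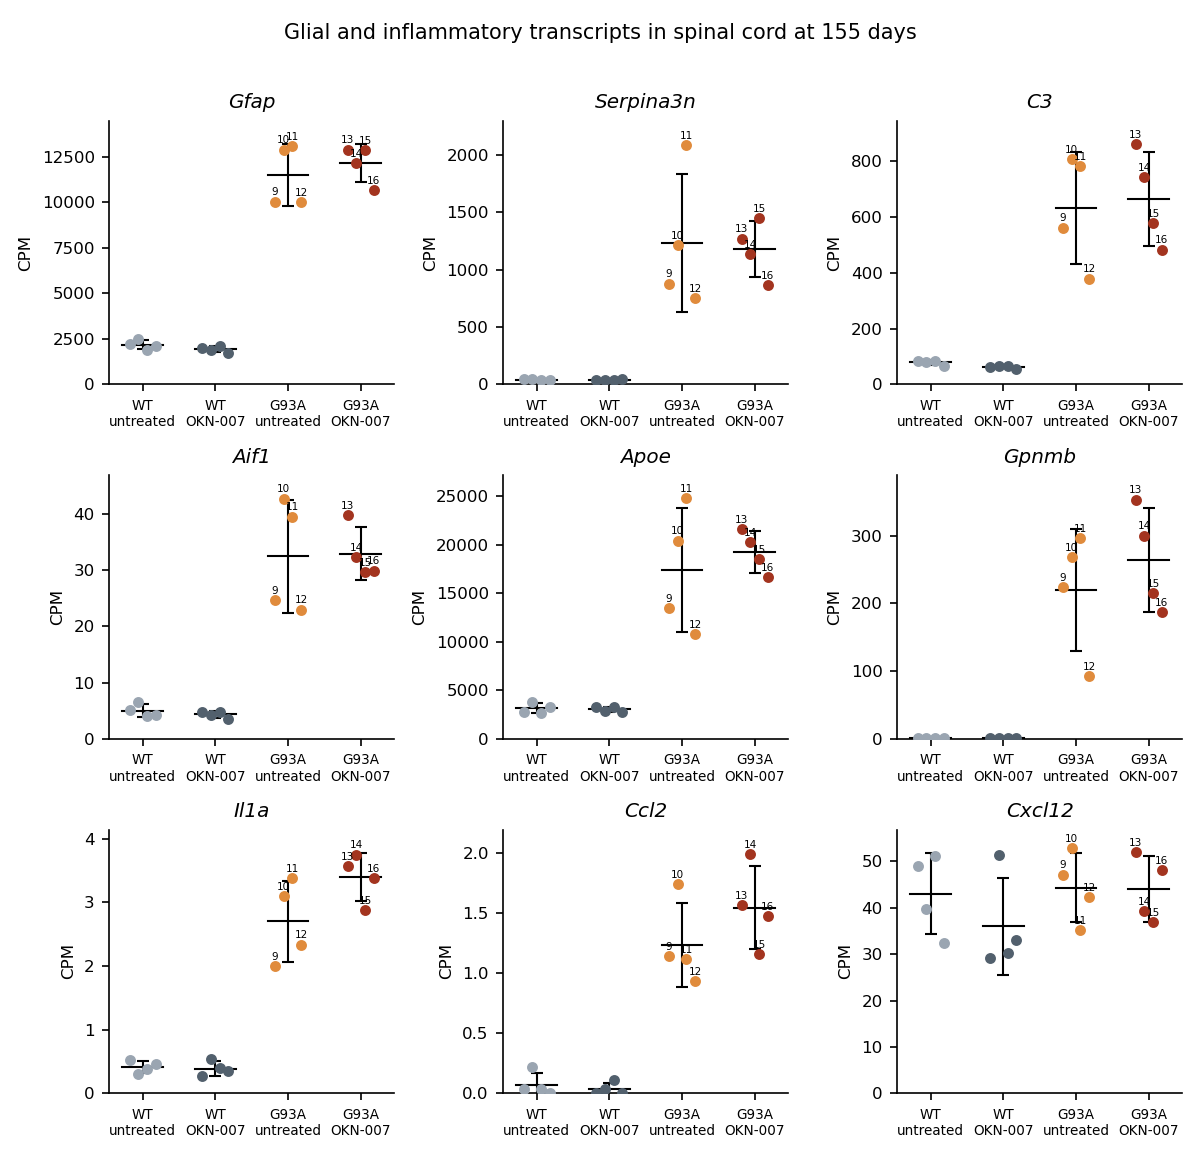
Glial and inflammatory transcripts in the spinal cord at 155 days. Each point is one mouse in CPM (numbered for G93A mice), and bars give the mean ± SD of 4 mice in untreated and treated WT and G93A groups. Gfap, C3, Aif1, Apoe and Il1a are above the WT level in all 8 G93A mice, and the treated mice overlap the untreated mice in every panel.

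Inflammatory mediators are of low abundance in this tissue, and their intervals are wide. Of 41 genes for the proteins of a cytokine array, 21 had enough counts to be tested, of which 12 lay above and 9 below zero (median 0.09), with 0 at an unadjusted p under 0.05. Il1a, a cytokine released by microglia that activates astrocytes, was 2.004, 3.10, 3.38 and 2.34 CPM untreated and 3.57, 3.75, 2.89 and 3.39 CPM treated. Its log2 fold change was 0.33 (SE 0.20, 95% interval -0.09 to 0.75), and the groups overlapped through treated 15. The monocyte chemoattractant Ccl2 was 1.14, 1.74, 1.11 and 0.934 CPM untreated and 1.56, 1.99, 1.15 and 1.47 CPM treated, a log2 fold change of 0.33 with an interval from -0.45 to 1.11.

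The interferon-induced chemokine Cxcl9 rested on 0, 26, 9 and 16 counts in untreated and 8, 14, 14 and 3 counts in treated mice, and no difference was detectable at this depth. Its log2 fold change of -0.48 (95% interval -1.98 to 1.02) turned to 0.19 without untreated 10. The chemokine Cxcl12 was 44.3 ± 7.5 CPM untreated and 44.1 ± 7.2 CPM treated, a log2 fold change of -0.01 (SE 0.18), and it had the same level in WT mice within the spread (43.1 CPM). Among 15 complement genes tested, 6 lay above and 9 below zero. Cfp, which encodes properdin, was 6.56 to 7.61 CPM untreated and 8.24 to 9.30 CPM treated without overlap, as were 2.08% of all genes. Its interval from -0.16 to 0.62 spans zero.

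Interferon-stimulated genes lay mostly below zero (15 of 19, median -0.09), with the untreated mice spread widely. Ifit3 was 46.9, 109, 65.4 and 45.1 CPM in untreated and 57.0, 68.8, 53.0 and 56.2 CPM in treated mice, so the treated mice lay within the range set by untreated 10 and 12. Without single mice the median of the group moved between -0.24 and 0.07. Of 15 genes of antigen presentation tested, 5 lay above and 10 below zero (median -0.03), and B2m, the shared light chain of class I molecules, was at 0.02 (SE 0.15). Lysosomal genes had a median of 0.00, with 8 above and 7 below zero. Of the 14 T cell and natural killer genes only 3 could be tested, with summed levels of 3.14 to 3.72 CPM untreated and 2.86 to 4.19 CPM treated.

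OKN-007 is described as an antioxidant, and the genes of oxidant defence were taken next. Among 18 targets of the transcription factor Nrf2, 8 lay above and 10 below zero with a median of -0.03 and 0 at an unadjusted p under 0.05. Hmox1, heme oxygenase 1, was 35.5 ± 13.6 CPM untreated and 37.9 ± 6.8 CPM treated (log2 fold change 0.10, SE 0.20), and Nqo1, a quinone reductase, was 14.8 ± 2.3 and 15.4 ± 1.2 CPM (0.06, SE 0.12). Both rose with genotype, by 2.87 and 0.80 on the log2 scale in untreated mice, and both were chosen as textbook targets after their values were seen.

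All 13 enzymes that remove superoxide and peroxides lay below zero, between -0.15 and -0.00054, with a median of -0.09 and 0 at an unadjusted p under 0.05. Prdx6, a peroxiredoxin, was 704, 897, 1314 and 619 CPM in untreated and 927, 850, 955 and 774 CPM in treated mice, and its log2 fold change was -0.01 with an interval from -0.35 to 0.33. The glutathione peroxidase Gpx1 was lowest at -0.15 (SE 0.16). In WT mice the median of these 13 genes with OKN-007 was -0.13, and at the earlier age in G93A mice -0.12. Genes of the NADPH oxidases and nitric oxide synthases, which produce oxidants, were split 6 above and 3 below zero (median 0.06).

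Heparan sulfate sulfatases have been named as targets of OKN-007 in other settings, and the 12 genes of sulfatases and proteoglycans tested here were split 5 above and 7 below zero (median -0.01). Sulf1 was 58.5 ± 10.3 CPM untreated and 56.0 ± 1.9 CPM treated (log2 fold change -0.06, 95% interval -0.30 to 0.18), and Sulf2 was 217 ± 27 and 217 ± 28 CPM (0.00, -0.22 to 0.22). Sulf1 and Sulf2 remove sulfate groups from heparan sulfate, and both rose with genotype, by 1.82 and 0.87 on the log2 scale. They were chosen for this role after their values were seen.

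Of 13 genes of the transforming growth factor beta pathway, 7 lay above and 6 below zero. Its receptor Tgfbr1 was 62.4, 73.9, 74.9 and 52.4 CPM untreated and 79.0, 78.0, 81.7 and 69.2 CPM treated, so that only treated 16 reached into the untreated range. The log2 fold change was 0.23 (SE 0.11, 95% interval -0.00075 to 0.45). The matricellular target Ccn2 was 6.33, 4.79, 17.1 and 8.08 CPM untreated and 3.30, 5.63, 7.20 and 5.79 CPM treated, a log2 fold change of -0.73 (SE 0.29, edgeR unadjusted p = 0.0207) in which untreated 11 stood high. Without untreated 11 it was -0.23. Of 19 vessel genes 4 lay above and 15 below zero (median -0.07), with Angpt2 lowest at -0.66 (95% interval -1.34 to 0.02) and Vwf highest at 0.21 (-0.06 to 0.49). Angpt2 was at -0.28 without untreated 11.

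Genes of cholesterol and fatty acid synthesis lay below zero throughout. All 16 were lower in treated mice, with a median log2 fold change of -0.16, which ran from -0.24 to -0.10 when single mice were left out. None passed the adjusted threshold, and 4 had an unadjusted p under 0.05, beside the background of 1.5%. In WT mice the median was -0.03 and at the earlier age in G93A mice 0.17, and the difference between ages did not pass the adjusted threshold for any of them. With genotype 15 of the 16 fell, in untreated (median -0.74) and in treated mice (median -0.86), beside 18.2% of all genes in each.

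Fasn and Acaca, which make fatty acids, were lower in all 4 treated mice than in all 4 untreated mice by small steps of -0.14 (SE 0.07) and -0.17 (SE 0.07). Of all genes tested, 1.08% were lower without overlap. Acaca was 85.5, 86.9, 98.6 and 86.1 CPM in untreated 9 to 12 and 83.1, 79.1, 81.02 and 74.3 CPM in treated 13 to 16, with untreated 9 and treated 13 nearest to each other. Hmgcs1, an early enzyme of the sterol pathway, was at -0.06 with an interval from -0.29 to 0.18. Fasn and Acaca were singled out after their values were seen.

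Nuclear genes of the respiratory chain showed small displacements in one direction. Of 34 genes, 32 lay below zero with a median of -0.11, and the range without single mice was -0.16 to -0.08. Ndufa10 and Ndufa9, subunits of complex I, were the 2 members with an unadjusted p under 0.05, both lower, at -0.20 (SE 0.07) and -0.19 (SE 0.08), beside the background of 1.5%. Ndufa10 was 149, 132, 141 and 137 CPM untreated and 117, 121, 119 and 130 CPM treated, without overlap, as were 1.08% of all genes. Both subunits were singled out after their values were seen. The median in WT mice with OKN-007 was -0.09 and in G93A mice of the earlier age -0.16, which are values of the same sign and order. Atp5b, the catalytic subunit of the ATP synthase, was 1165 ± 151 CPM untreated and 1055 ± 147 CPM treated, with an interval from -0.36 to 0.07.

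Oligodendrocyte transcripts were lower in 14 of 21 genes, with a median of -0.03. Myelin basic protein (Mbp) was 10730, 10870, 11520 and 9445 CPM untreated and 10480, 9378, 9703 and 10010 CPM treated, a log2 fold change of -0.11 (95% interval -0.27 to 0.06). Genes that carry or make myo-inositol, an osmolyte measured in the cord by magnetic resonance, had a median of -0.08 over 8 genes, and the transporter Slc5a3 was highest at 0.20 (-0.10 to 0.49). Stress response genes had a median of 0.04 over 12 genes, led by Trib3 at 0.36 (95% interval -0.06 to 0.78), while the chaperone Hspa5 was at 0.19 (-0.04 to 0.42).

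**Figure D4:**
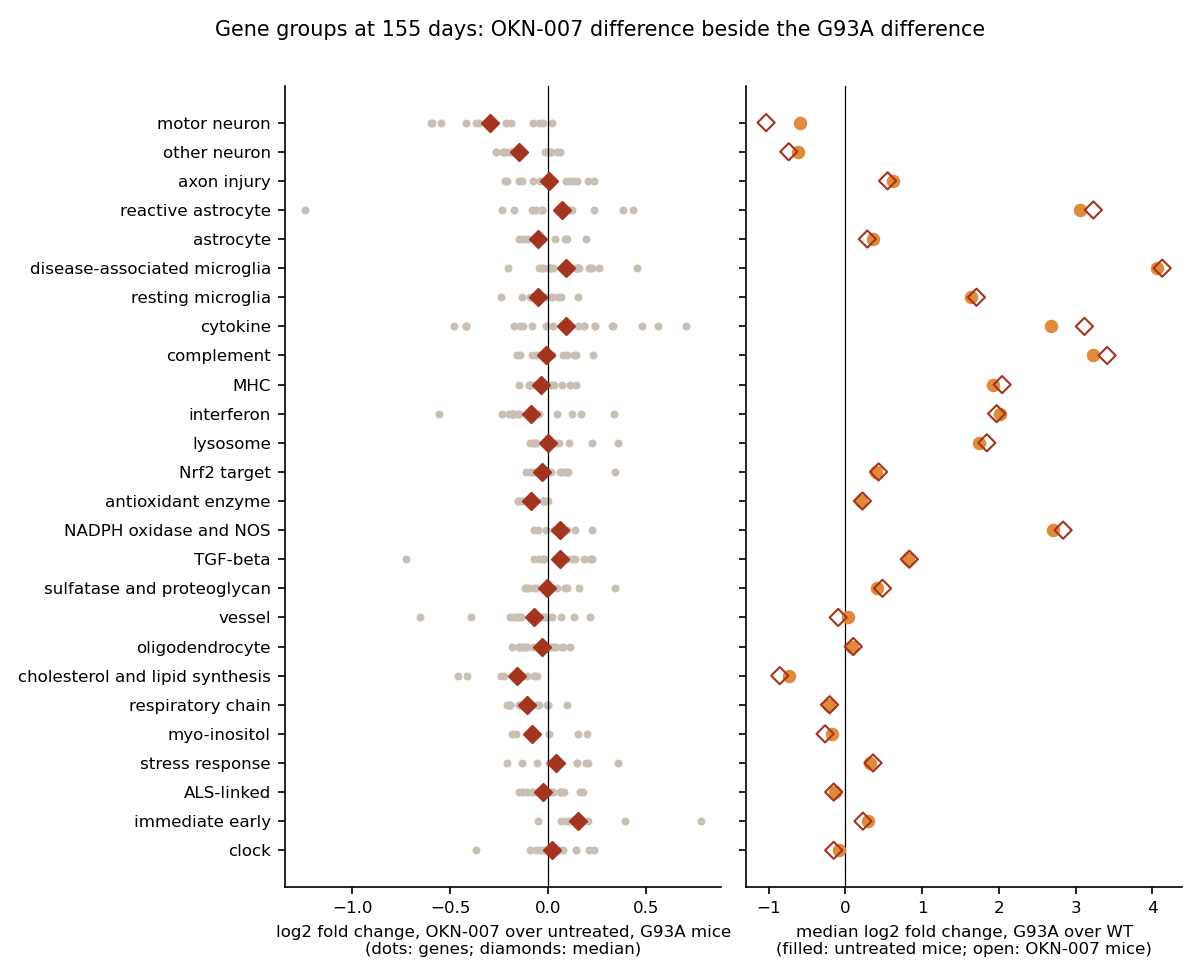
Gene groups at 155 days. On the left, each dot is the log2 fold change of one gene, OKN-007 over untreated in G93A mice, and the diamond is the group median; on the right are the group medians of G93A over WT in untreated mice (filled) and OKN-007 mice (open). The lowest treatment median is that of motor neuron genes (-0.30), whose genotype medians are -0.59 in untreated and -1.03 in treated mice, while those of disease-associated microglia are 4.06 and 4.13.

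The genes that separated the groups most sharply are given as a description, since they were ranked by the same comparison. Of the 389 genes higher without overlap, the 10 with the smallest p were Dyrk2, N4bp2, Gm37773, Nexmif, Gm3591, Spopl, Ccnt2, Vamp9, Fam208a and Samd1. Dyrk2 (ENSMUSG00000028630), a dual-specificity kinase, was 14.3, 14.04, 15.8 and 15.2 CPM untreated and 19.6, 20.1, 18.5 and 17.6 CPM treated, a log2 fold change of 0.35 (SE 0.08). Fam208a (ENSMUSG00000040651), also called TASOR, a subunit of the HUSH silencing complex, was 43.1, 40.4, 35.2 and 35.4 CPM untreated and 49.2, 59.3, 59.7 and 52.5 CPM treated, a log2 fold change of 0.52 (SE 0.15). Every treated mouse was above every untreated mouse in both, and the adjusted p was 0.9996. Nexmif, a neurite extension factor, was at 0.39 (SE 0.10), Ccnt2, a cyclin of the transcription elongation factor P-TEFb, at 0.33 (SE 0.09), and Spopl, an adaptor of cullin 3 ubiquitin ligases, at 0.34 (SE 0.09). Gm3591 and Vamp9 rested on at most 21 and 17 counts in a mouse.

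Of the 202 genes lower without overlap, the 10 with the smallest p were Tmc5, Chat, Stbd1, Vdr, Gm49674, Ciart, Cmpk2, B230312C02Rik, Gm44241 and Loxl1. Tmc5, a member of the transmembrane channel-like family, rested on 11, 4, 10 and 16 counts in untreated mice and 4, 0, 1 and 2 in treated mice, and its fitted log2 fold change of -2.53 has an interval from -3.78 to -1.28. Stbd1, which binds glycogen, was 8.36 ± 0.95 CPM untreated and 5.84 ± 0.57 CPM treated (log2 fold change -0.52, SE 0.15), beside an increase of 1.18 with genotype in untreated mice. Vdr, the vitamin D receptor, was 3.46, 2.48, 2.84 and 2.44 CPM untreated and 1.42, 2.02, 1.63 and 2.08 CPM treated, a log2 fold change of -0.65 (SE 0.19). Ciart, a repressor of the circadian clock, was 9.63, 7.77, 7.91 and 7.68 CPM untreated and 6.49, 5.78, 6.45 and 6.82 CPM treated (-0.37, SE 0.11). Clock, an activator of the same loop, was at 0.24 (SE 0.10), higher without overlap, as were 2.08% of all genes. The other clock genes tested did not move one way, with a median of 0.02 over the 13, and the hour at which the mice were killed is not given in the sources used here.

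**Figure D5:**
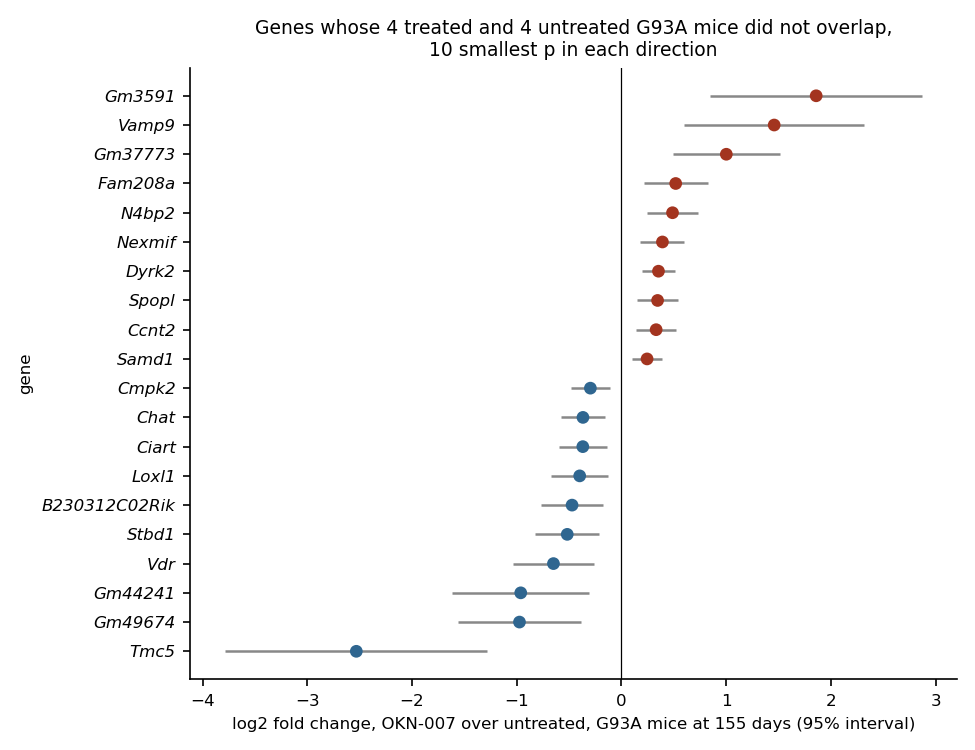
Log2 fold change of OKN-007 over untreated in G93A mice at 155 days for the genes whose 4 treated and 4 untreated mice did not overlap, 10 with the smallest p in each direction. Points are estimates (red higher, blue lower) and lines are 95% intervals, for genes that were ranked by this comparison. Dyrk2 is at 0.35 and Chat at -0.37.

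The separated genes differed in sequence properties, which the choice did not use. When all tested genes were divided into 5 bins by GC content, 6.34% of the bin with the lowest content (28.1% to 43.5%) were higher without overlap, against 0.618% to 1.64% in the other bins. The median GC content was 42.0% in the 389 higher genes, 50.4% in the 202 lower genes and 49.3% in all genes tested, and the median transcript length was 4605.5, 2791.5 and 3068 bases. In that lowest bin the median deviation of a library was -0.04 to -0.01 on the log2 scale in untreated mice, 0.00 in treated 13 and 0.03 to 0.04 in treated 14 to 16. In 5 bins by length, 4.73% of the bin with the longest transcripts were higher without overlap, against 0.994% to 2.18% in the others. The deviation in that bin was -0.11 in untreated 11, -0.01 to 0.03 in the other untreated mice and -0.00074 to 0.036 in treated mice. The part of GC content and length in the separation was not tested beyond fits with these deviations removed. Those fits left 743 (GC content) and 840 (length) genes at an unadjusted p under 0.05 and 0 past the adjusted threshold.

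Without the filter on low counts, 40747 genes entered the test and 17 passed an adjusted p of 0.05 by edgeR. Of the 5 with most counts, Gm10800 (log2 fold change -4.25) and Gm10801 (-4.13) rest on untreated 9, with 34700 and 2231 counts there against at most 995 and 76 in any other mouse. Fam208a (0.52, adjusted p = 0.0290) and Slc18a3 (-0.60, adjusted p = 0.0175) are described above. Glra3, a subunit of the glycine receptor, was 9.90, 8.51, 6.51 and 9.38 CPM untreated and 10.3, 16.9, 14.2 and 12.98 CPM treated, without overlap (0.66, adjusted p = 0.0332). All 5 of these genes were also tested with the filter, where the smallest adjusted p of any gene was 0.9996 by edgeR. Of the genes tested with the filter, 2.08% were higher without overlap. The remaining 12 include Fabp4, Cfd and Adipoq, carried by untreated 12, and Hoxc12, Hoxc13 and Hotair of the caudal Hox cluster, which were highest in treated 14 and 16.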

How the data were processed

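RNA of spinal cord from 32 mice, 4 in each of 8 groups, was sequenced with a stranded mRNA library kit. Per the study's methods, the authors trimmed reads, aligned them with STAR to GRCm38 and counted them with HTSeq and GENCODE M10, while the submitters' processing notes name FastQC, STAR, featureCounts, edgeR, GRCm39 and hg38. Of the identifiers, 820 belong to a newer series than the rest, so the build is uncertain and no coordinates are given. The deposited values are raw counts per gene. Of 42524 genes, 41203 (96.9%) were paired with a symbol through GENCODE M21.

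In R 4.3.3 with edgeR 4.0.16, the 16 mice of 155 days were fitted as 4 groups with no covariates (18675 genes kept by filterByExpr, TMM factors, glmQLFit, glmQLFTest), and the age difference over all 32 mice. The Benjamini-Hochberg adjustment ran over all genes tested, and SE and 95% intervals follow from the F statistic. Depth was 24432099 to 30098431 counts per G93A mouse at 155 days. Nothing states separate litters or days, so p-values measure the spread between these mice. The lists and the mice compared were chosen with earlier results of these data known.

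Genes were named by rule: any past the adjusted threshold, the 10 smallest p in each direction among genes whose groups did not overlap, the extremes and highest CPM of each list, Gfap, Aif1, Rbfox3, Chat, Sod1, Il1a, Ccl2, Cxcl9 and Cxcl12, and the 5 genes with most counts among those called only without the filter. Alternatives were DESeq2 1.42.0, limma-voom (limma 3.58.1), the likelihood ratio test, robust dispersions, RLE factors, other filters and samples, a caudal Hox covariate, a surrogate variable (sva 3.50.0) and leaving out each G93A mouse. GC and length corrections and leaving out untreated 9 and 10 were chosen after seeing the data. The procedure was tested on simulated data. Some genes are not reported here.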

Additional observations from a re-analysis of the deposited data

Results flagged for a closer look

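Among 98 sets of 4 mice from 49 measures (summed gene lists, fixed genes and depth measures in each group of the comparison), 3 held a mouse whose distance to its nearest neighbour took up more of the range of its group than Dixon's 95% critical value allows. Chance flags about 1 in 20 such sets.

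The summed level of 13 cell division genes was 91.4 CPM in untreated 10, while the other 3 untreated mice had 57.6, 58.3 and 59.8 CPM (gap over range 0.934). Treated mice had 60.4 to 81.8 CPM.

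The summed level of 8 liver genes was 196 CPM in untreated 12 against 1.53, 1.53 and 8.77 CPM in the other untreated mice (gap over range 0.963). In treated 15 it was 138 CPM against 1.29, 1.46 and 4.53 CPM in the other treated mice (gap over range 0.976). Leaving out these 2 mice kept the number of genes past the adjusted threshold at 0.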

How the results depend on the processing

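The count of 0 genes past an adjusted p of 0.05 for OKN-007 in G93A mice at 155 days held under DESeq2, limma-voom, the likelihood ratio test, robust dispersions, RLE factors, the stricter filter, other sets of mice, the Hox covariate, the surrogate variable, the GC and length corrections and every fit without 1 mouse. Without the filter on low counts it was 17. The count at an unadjusted p under 0.05 was 755, 1523 without the filter, 502 without both mice with liver transcripts, 469 to 1221 when leaving out 1 mouse, and 635 to 1039 otherwise. The interaction had 0 calls, against 2 with DESeq2, 3 with the likelihood ratio test, 8 without the filter and 2 with the Hox covariate, and 0 to 0 when leaving out 1 mouse. The midpoint contrast had 4554 calls, 2576 to 5400 when leaving out 1 mouse. The cause of these differences was not tested, except that leaving out a mouse or the filter changes how many mice or genes are tested.

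Of 2564 single values of genes and lists recomputed, 2487 moved by less than the spread between mice and 77 by more, and 0 passed the adjusted threshold under the alternatives run for single genes, which did not include the absence of a filter. RLE factors moved the median of all genes by -0.01. Depth limits genes near 3 counts, and 4 mice a group limit the rest.

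The treated and untreated mice at 155 days share no number in the labels, so they were not paired. Numbers are shared between ages only. With the number as a replicate block, the difference between ages in G93A mice called 0 genes, with 400 at an unadjusted p under 0.05. The deviations of same-numbered mice correlated between -0.23 and 0.17 over 8 numbers, and 1 of 8 correlated best with its own number. These values cannot tell whether same-numbered mice share a litter or batch, and the numbers were taken as names.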

Other observations

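Genes of cell division lay above zero in 9 of 13 cases (median log2 fold change 0.15 with OKN-007 in G93A mice, 0 past the adjusted threshold by edgeR, 1 higher at an unadjusted p under 0.05, beside 2.54% of all genes). The median ran from 0.07 to 0.30 when single mice were left out. Aurkb, a mitotic kinase, was 0.708, 0.702, 0.741 and 0.467 CPM in untreated and 1.25, 1.07, 1.09 and 1.10 CPM in treated mice, without overlap, as were 2.08% of all genes, a log2 fold change of 0.79 (SE 0.35). In WT mice it was at 0.0784 CPM untreated, so these are transcripts that rise with genotype (2.90 on the log2 scale). Top2a, a topoisomerase of dividing cells, was at 0.21 with an interval from -0.17 to 0.59. Immediate early genes lay above zero in 9 of 10 cases (median 0.16, between 0.06 and 0.27 without single mice, and 0.21 in WT mice). Fosb, a neuronal activity gene, was 1.81, 2.07, 1.94 and 1.37 CPM in untreated and 2.71, 3.53, 3.23 and 2.86 CPM in treated mice, without overlap, a log2 fold change of 0.78 (SE 0.31).

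Genes of cells at the border of the cord and of blood had summed levels that overlapped between the groups. Over the 8 G93A mice these were 181 to 248 CPM for Schwann cell genes, 70.02 to 98.3 CPM for ependymal genes, 47.9 to 97.7 CPM for red cell genes and 53.6 to 71.2 CPM for meningeal genes. Those of border macrophages, sensory ganglia and muscle were at most 11.5, 5.24 and 4.07 CPM. Medians of the log2 fold change were 0.12 over 4 muscle genes, 0.11 over 7 Schwann cell genes, 0.02 over 6 meningeal genes, 0.05 over 6 ependymal genes, 0.01 over 5 red cell genes, -0.01 over 5 border macrophage genes and 0.08 over 2 sensory ganglion genes. Xist, expressed in females, was 301, 379, 294 and 278 CPM in untreated and 408, 424, 389 and 362 CPM in treated mice, a log2 fold change of 0.34 (SE 0.13, edgeR unadjusted p = 0.0155, adjusted p = 0.9996), with overlap through untreated 10.

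The interaction calls of DESeq2, the likelihood ratio test and the Hox covariate fit concern the neighbouring genes Ide, Btaf1 and Fgfbp3. Without the filter on low counts, they were called together with Gm47483, Sult5a1, Pank3, Hoxc13 and Hoxc12. The values of Ide, Btaf1 and Fgfbp3 set the treated WT mice apart more than the G93A mice. Ide, the insulin-degrading enzyme, was 32.6 to 41.1 CPM in treated WT mice at 155 days against 46.3 to 82.8 CPM in untreated WT mice, 57.3 to 87.0 CPM in untreated G93A mice and 77.1 to 84.9 CPM in treated G93A mice. At the earlier age the 16 mice of all 4 groups lay between 54.1 and 73.0 CPM. Fgfbp3, a binding protein of fibroblast growth factors, was 8.24 to 11.8 CPM in treated WT mice and 11.1 to 18.1 CPM in G93A mice, and Btaf1 was 16.2 to 23.9 CPM and 23.1 to 44.6 CPM. Ide, Btaf1 and Fgfbp3 were chosen after their values were seen, and in the main fit by edgeR's quasi-likelihood test none of them passed the adjusted threshold. By the same test without the filter, the adjusted p was 3.28e-06 for Ide and Btaf1 and 0.00387 for Fgfbp3. With the Hox covariate it was 0.036 for Ide and Btaf1.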
